A study of Mus musculus with 33 samples.

Results

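Kidneys collected 2 weeks after delivery of interferon-alpha were compared with kidneys collected 1 week after it, in lupus-prone BWF1 (NZB X NZW F1) mice. The members are the 5 arrays labelled week 2 and the 5 arrays labelled week 1, 10 of the 33 kidney arrays in the series, and the question was which week 1 signals had eased or come back by week 2. Mice of both groups received Adv-IFNα, an adenovirus with a mouse IFNα expression cassette, by intravenous injection, and the study's methods describe females. The 3 untreated kidneys, and the 5 kidneys of week 3, are given beside the comparison for reference. Each array holds whole-kidney RNA of a separate mouse on the Affymetrix HT-MG-430 PM platform, a 1-colour array labelled with NuGEN Ovation reagents. The labels list no age and no group given an empty virus, so a response to the vector, a response to IFNα and the extra week since injection cannot be told apart.

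Type I interferons act through a shared receptor and switch on antiviral genes that carry interferon-stimulated response elements. Among these are the IFIT, Mx and OAS effectors, the guanylate-binding proteins and immunity-related GTPases, and feedback genes such as Usp18. Globin transcripts in whole kidney come mainly from red cells and reticulocytes in the blood held in the organ. Chaperones of the cytosol are under heat shock factor control, and those of the endoplasmic reticulum (ER) under the unfolded protein response, which the cell raises when its secretory load grows.

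Pairwise correlations among the 10 arrays ran from 0.985 to 0.994, the medians from 3.97 to 4.07 on the log2 scale, and the 3′/5′ differences of the actin and Gapdh controls did not separate the weeks (exact permutation p = 0.992 and 0.270, two-sided). Umod, the loop of Henle marker, read 11.06 ± 0.07 at week 1 and 11.12 ± 0.03 at week 2 (log2, SD, n = 5 each). Genes of adrenal steroid synthesis stood high on 3 arrays. Hsd3b1 read 7.76 on week 1 replicate 1, 10.18 on week 1 replicate 4 and 10.04 on week 2 replicate 4, against 2.71 to 3.03 on the other 7 arrays of the pair of weeks, and Star, Cyp11b1 and Cyp21a1 stood high on the same arrays. Counts without these 3 arrays are given beside the main ones.

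Differences are week 2 minus week 1 on the log2 scale, tested with limma over 45037 probe sets, and a gene is said to rise or fall only at a Benjamini-Hochberg adjusted p below 0.05. Few features reached this. Of all probe sets, 27 rose (0.06%) and 18 fell (0.04%), and past 2-fold 4 rose (0.00888%) and 3 fell (0.00666%). Those that rose past 2-fold were the 3 of Hba-a1 and a probe set without a gene name, up by 1.51. Those that fell past it read Apod, Per2 and Manf. With each gene read from its brightest probe set, 9 of 17097 genes rose (0.0526%) and 11 fell (0.0643%). At an unadjusted p below 0.05, 623 genes were higher (3.64%) and 809 lower (4.73%). The 5 week 2 arrays lay above all 5 week 1 arrays for 256 genes (1.5%) and below them for 309 (1.81%). The difference was negative for 56.1% of all genes, the share to set beside the counts of signs below. Leaving out week 1 replicate 5 left 0 probe sets higher and 2 lower, and every other single array left 1 to 10 higher and 4 to 10 lower. Without the 3 arrays high in adrenal genes, 0 rose and 1 fell, a probe set of Hspa8. All 20 called genes kept their direction without these arrays and 0 passed, with adjusted p from 0.0502 to 0.423.

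The interferon response was lower at week 2 and still far above the untreated kidneys. Across 84 measured interferon-stimulated genes of 101 listed, 81 had a negative difference (96.4%, against 56.1% of all genes) and 3 a positive one. The median was -0.34 against -0.02 over all genes. None passed the adjusted threshold in limma. At an unadjusted p below 0.05, 24 members were lower (28.6%) and 1 higher (1.19%), against 4.73% and 3.64% of all genes. For 15 (17.9%, against 1.81%) the week 2 arrays lay below every week 1 array. The mean level of the 84 genes was 7.39, 7.54, 7.41, 7.52 and 7.58 on the week 1 arrays and 6.89, 7.07, 7.32, 6.92 and 7.34 on the week 2 arrays (log2). The weeks did not overlap in this mean, and week 2 replicates 3 and 5 lay nearest to week 1. In bulk tissue, fewer cells of a type and less RNA per cell cannot be told apart.

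**Figure D1:**
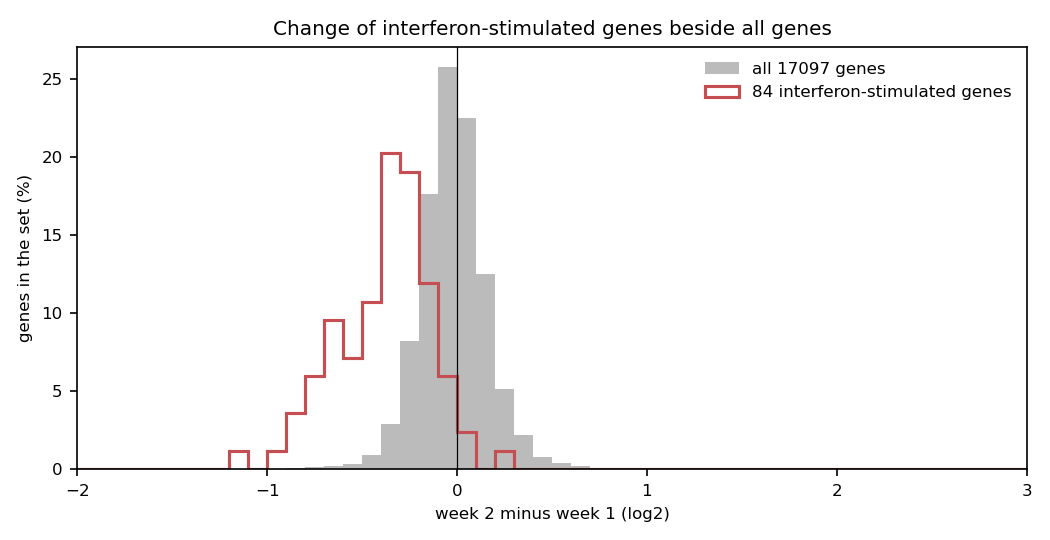
Distribution of the week 2 minus week 1 difference (log2, x axis) for the 84 interferon-stimulated genes (red outline) and for all 17097 genes (grey), each as a percentage of its set (y axis). The interferon-stimulated genes centre at -0.34 and all genes at -0.02.

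Against the 3 untreated kidneys, 66 of the 84 were raised at week 1 (1.4% of all genes) and 61 at week 2 (1.27%), by limma at an adjusted p below 0.05. These comparisons share the untreated arrays. The median difference from untreated was 1.85 at week 1 and 1.55 at week 2. From week 2 to week 3 the median difference of the 84 was 0.14, against 0.05 over all genes.

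Irf7, the transcription factor that amplifies interferon production, had the most negative difference among the interferon genes described here. It read 8.23, 8.64, 8.23, 8.41 and 8.39 on the week 1 arrays and 6.94, 7.27, 7.32, 6.63 and 7.39 on the week 2 arrays (log2), with untreated kidneys at 3.95, 4.13 and 3.98. All week 2 arrays lay below all week 1 arrays and above all untreated ones. The difference was -1.27 ± 0.34 (SE), with an adjusted p of 0.174 in limma over all 33 arrays. It passed when only the 10 arrays of the comparison were fitted (adjusted p = 0.00325), with untreated and weeks 1 to 3 alone (0.000261) and with array weights (0.0322). Week 3 averaged 7.40 and week 5 6.54.

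Ifih1, which encodes the cytosolic RNA sensor MDA5, read 8.40, 8.70, 8.69, 8.53 and 8.80 at week 1 and 7.83, 7.75, 8.12, 7.61 and 7.55 at week 2, with no overlap. Its difference of -0.85 ± 0.22 did not pass (adjusted p = 0.15, limma), and it passed under the same 3 alternatives as Irf7 (adjusted p = 0.0139, 0.0227 and 0.0322, limma). Of the 17 measured sensors of foreign nucleic acid and their adaptors, Ifih1 included, 15 had negative differences, with a median of -0.17 and 0 past the adjusted threshold.

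The list of IFIT, Mx and OAS antiviral effectors was lower as a group. It also holds antiviral genes of other families, among them Ifitm3, Rsad2, Eif2ak2 and Adar. All 21 measured members were lower on average at week 2 (median -0.39). Of these, 7 were lower at an unadjusted p below 0.05 (33.3%, against 4.73% of all genes). For 7 the weeks did not overlap (33.3%, against 1.81%). Oasl1, an inhibitor of Irf7 translation, read 8.81, 9.28, 9.24, 9.06 and 9.35 at week 1 and 7.59, 7.74, 8.61, 7.92 and 8.11 at week 2, a difference of -1.15 ± 0.31 (adjusted p = 0.165). Ifit1 read 10.20, 10.74, 10.47, 10.41 and 10.42 and then 9.00, 9.80, 9.96, 9.38 and 9.60 (-0.90 ± 0.36, adjusted p = 0.467). In both genes the lowest week 1 array lay above the highest week 2 array. Oasl2 had a difference of -0.90 ± 0.36 without overlap, whereas Ifit3 (-0.73 ± 0.26), Mx1 (-0.63 ± 0.38) and Oas2 (-0.33 ± 0.22) overlapped between the weeks.

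**Figure D2:**
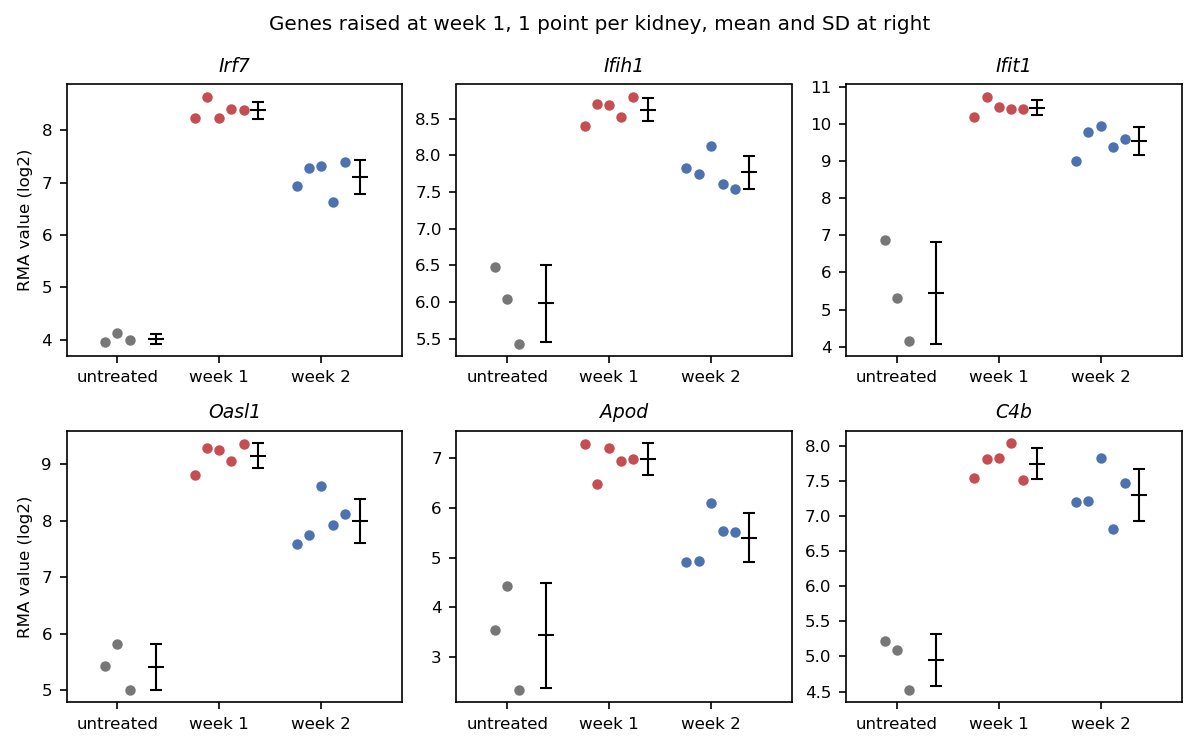
RMA values (log2, y axis) of Irf7, Ifih1, Ifit1, Oasl1, Apod and C4b in untreated, week 1 and week 2 kidneys, 1 point per kidney, with the group mean and SD as a bar at the right of each group. Week 2 lies between untreated and week 1 in each panel, without overlap with week 1 in all but C4b.

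Among the guanylate-binding proteins and immunity-related GTPases, which attack the vacuoles of intracellular pathogens, 12 of 13 were lower (median -0.47), led by Gbp10 at 10.97 ± 0.21 in week 1 and 10.15 ± 0.37 in week 2 (SD, n = 5 each). This group had a median of 0.60 from week 2 to week 3. The 17 ubiquitin-like and ADP-ribosylation genes were all lower, by a median of -0.25 and with every member overlapping between the weeks; Usp18, which removes ISG15 from proteins, differed by -0.58 ± 0.30. The remaining 33 interferon-stimulated genes had a median of -0.34, with 31 lower. Genes of receptor signalling and feedback, a list that includes Irf7, went both ways, from -1.27 to 0.51 with a median of -0.05 over 22 members. At an unadjusted p below 0.05, 2 of them were lower and 2 higher (9.09% each, against 4.73% and 3.64% of all genes). Irf9, a transcription factor of the interferon response, differed by -0.24 ± 0.21.

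The upstream sequence of Ifit1 is shown because it holds the motif of the interferon-stimulated response element. The window covers the 250 bases before the start site in RefSeq's annotation of GRCm38.p6 (chr19:34640639-34640888, plus strand), printed 5′ to 3′ with matches to GAAANNGAAA on either strand in capitals.
Ifit1: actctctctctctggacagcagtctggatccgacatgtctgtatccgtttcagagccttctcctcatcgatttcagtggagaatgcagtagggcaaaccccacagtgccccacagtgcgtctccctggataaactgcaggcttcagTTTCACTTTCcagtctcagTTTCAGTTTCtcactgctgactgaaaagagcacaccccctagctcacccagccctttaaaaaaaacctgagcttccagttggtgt
Both matches are on the minus strand. Of the 84 genes, 66 had an upstream window, and 26 of these held the motif (39.4%), against 3.46% of 27025 genes with a window. The 26 had a median difference of -0.41 with all 26 below 0, and the 40 without it a median of -0.30 with 38 below 0. These are descriptions of letters and not of binding.

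Apod, a lipocalin that carries small hydrophobic molecules, had the largest fall of all genes. It read 7.30, 6.49, 7.22, 6.96 and 6.99 at week 1 and 4.92, 4.93, 6.11, 5.53 and 5.53 at week 2, with untreated kidneys at 3.54, 4.43 and 2.34. No week 2 array reached week 1, and none came down to untreated. The fall was 1.59 ± 0.32 on the log2 scale (SE), 3.00-fold, with an adjusted p of 0.0382 in limma. Over the 10 fits that left out 1 array the adjusted p ran from 0.0400 to 0.139, passing only without week 1 replicate 2 or week 2 replicate 3. Without the 3 arrays high in adrenal genes the difference was -1.53 (adjusted p = 0.267). Week 3 averaged 5.26.

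Complement genes, made in kidney by tubule cells and macrophages, were also lower on average. Of 17 measured, 16 had negative differences (median -0.32), and 0 passed the adjusted threshold in limma. At an unadjusted p below 0.05, 5 were lower (29.4%, against 4.73% of all genes). Their mean level ran from 5.71 to 5.94 at week 1 and from 5.34 to 5.61 at week 2 (log2), without overlap. C1qa, a subunit of the initiating C1q molecule, differed by -0.69 and C3ar1, a complement receptor, by -0.58. C4b, at 7.75 ± 0.22 and 7.31 ± 0.37 (SD, n = 5 each), differed by -0.45 ± 0.31. Against untreated, 7 of the 17 complement genes were raised at week 1 and 2 at week 2, beside 1.4% and 1.27% of all genes.

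Macrophage and monocyte markers had mostly negative differences too. Of 28 measured, 21 had negative differences (75%, against 56.1% of all genes), with a list median of -0.14. At an unadjusted p below 0.05, 3 were lower (10.7%, against 4.73% of all genes), and 0 passed the adjusted threshold. Their mean level was 4.50 to 4.57 at week 1 and 4.22 to 4.52 at week 2 (log2), with week 2 replicates 1 and 2 lowest. Adgre1, a surface receptor of tissue macrophages, differed by -0.53 and Aif1 by -0.31. These were the 2 markers lower without overlap (7.14%, against 1.81% of all genes), and the highest difference in the list was 0.43. Relative to untreated, 4 of the 28 were raised at week 1 and 0 at week 2, beside 1.4% and 1.27% of all genes. The markers' median difference from untreated was 0.18 at week 1 and 0.14 at week 2. Their part in the interferon and complement differences was not tested.

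Class I antigen presentation genes lay lower on average as well. Of 16 measured genes 14 had negative differences and 2 positive ones (median -0.25), in a range from -0.64 to 1.53. At an unadjusted p below 0.05, 2 were lower (12.5%, against 4.73% of all genes) and 1 higher (6.25%, against 3.64%). In limma 0 passed the adjusted threshold. H2-K1 read 8.77 ± 0.06 and 8.38 ± 0.36 (SD, n = 5 each). Over untreated, 9 of the 16 were raised at week 1 and 5 at week 2, beside 1.4% and 1.27% of all genes. Class II genes had a median of 0.21, with 9 of 12 positive and 0 past the adjusted threshold.

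Alpha globin rose at week 2 from a low week 1 level. Hba-a1, adult alpha globin, read 7.27, 6.65, 6.07, 6.07 and 6.73 at week 1 and 8.98, 9.26, 9.76, 9.38 and 9.54 at week 2 (log2), with untreated kidneys at 8.24, 8.84 and 9.35. Every week 1 array lay below every untreated and every week 2 array, but the week 1 difference from untreated, -2.25, did not pass (adjusted p = 0.0585, limma). The rise was 2.83 ± 0.54 (SE; 95% interval 1.73 to 3.92), 7.09-fold, with an adjusted p of 0.0264 in limma, and it was the largest rise of all genes. All 3 probe sets of Hba-a1 rose, by 2.50 to 3.57.

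Hbb-b2, adult beta globin, had the second largest difference. It read 8.45, 7.70, 6.21, 7.89 and 7.76 at week 1 and 9.59, 9.78, 10.32, 9.87 and 10.26 at week 2, without overlap. Its difference was 2.36 ± 0.62 (5.15-fold) and did not pass (adjusted p = 0.162). Both globins averaged higher still at week 3, at 10.17 for Hba-a1 and 10.59 for Hbb-b2, and both were low again at week 7, at 7.41 and 7.81. The call on Hba-a1 was lost in 9 of the 10 fits without 1 array (adjusted p 0.0336 to 0.0874, difference 2.70 to 3.00), holding only without week 1 replicate 1, and without the 3 arrays high in adrenal genes the difference was 2.90 (adjusted p = 0.149). Hba-a1 and Hbb-b2 have near-identical neighbouring copies, and the probe sets may read these too.

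**Figure D3:**
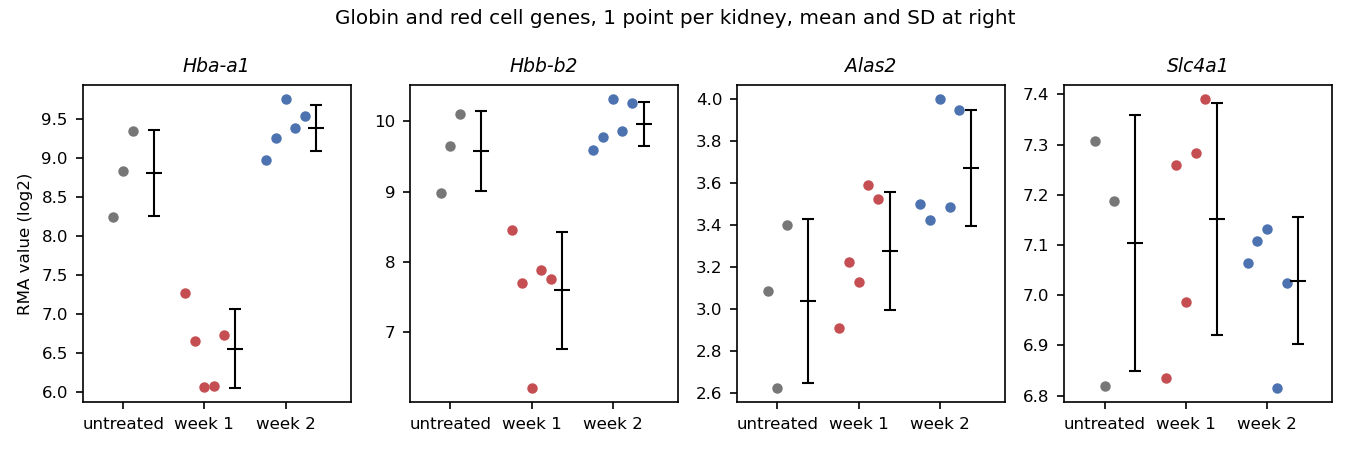
RMA values (log2, y axis) of Hba-a1, Hbb-b2, Alas2 and Slc4a1 in untreated, week 1 and week 2 kidneys, 1 point per kidney, with the group mean and SD at the right of each group. The globins have their lowest means of the 3 groups at week 1, 6.56 and 7.60, below every week 2 array.

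No other red cell gene passed the test. Of 32 measured globin and erythroid genes 1 rose and 0 fell, with a median of -0.02. Alas2, the first enzyme of haem synthesis in red cells, read 3.28 ± 0.28 and 3.67 ± 0.28 (SD, n = 5 each), and Slc4a1, the band 3 anion exchanger also made by kidney intercalated cells, 7.15 ± 0.23 and 7.03 ± 0.13. Tfrc, the transferrin receptor, differed by -0.11 ± 0.21. The probe set named for Hba-a2 averaged 7.23 and 7.22. Markers of other blood cells had medians near 0. Platelet genes had a median of 0.06, neutrophil genes 0.01 and T and NK cell genes -0.05, with 0 of 12, 19 and 22 past the adjusted threshold in limma. At an unadjusted p below 0.05, 1 platelet gene was higher (8.33%, against 3.64% of all genes) and 0 lower. Of the neutrophil and the T and NK cell genes 0 passed this limit. Mean levels of these lists lay between 2.62 and 3.51 in both weeks, below the array medians, as did both Alas2 means. At such levels a median near 0 cannot show whether the blood held in the organ changed.

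Hspa5 and Manf of the ER fell. Hspa5 (BiP), the main Hsp70 of the ER, read 9.97, 9.88, 10.25, 9.77 and 10.34 at week 1 and 9.41, 8.99, 8.89, 9.17 and 9.27 at week 2 (log2). The weeks did not overlap, and 4 of 5 week 2 arrays lay under the lowest untreated array, 9.38, but the week 2 difference from untreated, -0.39, did not pass (adjusted p = 0.246, limma). The fall was 0.89 ± 0.14 on the log2 scale (SE), 1.86-fold, with an adjusted p of 0.00679 in limma, and the second Hspa5 probe set fell as well, by 0.74. Without week 1 replicate 5 the adjusted p was 0.0623, and without the 3 arrays high in adrenal genes 0.0502, with a difference of -1.02.

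Manf, an ER-resident factor secreted under ER stress, read 7.57, 7.30, 7.40, 7.33 and 7.74 at week 1 and 6.28, 6.53, 6.38, 6.11 and 6.77 at week 2. Its highest week 2 array lay below its lowest untreated array, 7.16 (adjusted p = 0.0408 against untreated, limma). The fall was 1.05 ± 0.20 (2.07-fold, adjusted p = 0.0264), and 3 of the 10 fits without 1 array kept it (adjusted p 0.0378 to 0.0902). Without the 3 arrays high in adrenal genes the difference was -0.99 (adjusted p = 0.236). Of 24 measured genes of the unfolded protein response and ER these 2 fell and 0 rose. At an unadjusted p below 0.05, 8 were lower (33.3%, against 4.73% of all genes). For 7 the weeks did not overlap (29.2%, against 1.81%), among them Ddit3 (-0.48), Creld2 (-0.53) and Hyou1 (-0.31). The list's median was -0.15.

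The window before the Hspa5 start site is printed because the ER stress element, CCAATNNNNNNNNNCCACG, lies in it. The 250 bases are from RefSeq on GRCm38.p6 (chr2:34771840-34772089, plus strand), with the match in capitals.
Hspa5: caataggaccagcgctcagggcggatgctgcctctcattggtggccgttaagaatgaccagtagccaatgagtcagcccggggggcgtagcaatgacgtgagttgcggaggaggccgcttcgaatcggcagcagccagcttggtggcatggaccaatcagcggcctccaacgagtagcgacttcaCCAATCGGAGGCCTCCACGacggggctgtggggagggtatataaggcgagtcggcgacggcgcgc
Of 21 members of the list with a window, 7 held this motif (33.3%), against 0.13% of all genes with a window. The differences of the 7 ran from -0.89 for Hspa5, -0.53 for Creld2, -0.35 for Hsp90b1 and -0.27 for Pdia6 to 0.02 for Canx, with a median of -0.27, and the 14 others had a median of -0.08. The heat shock element GAANNTTCNNGAA was found upstream of 1 of 13 heat shock and chaperone genes with a window, Hspe1, a mitochondrial chaperonin, and of 0.514% of all genes. The E-box CACGTG was found in 5 of 19 clock genes (26.3%) and in 6.86% of all genes.

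Cytosolic chaperones gave 2 further falls. Dnaja1, an Hsp40 partner of Hsp70, read 9.53, 9.47, 9.34, 9.29 and 9.70 at week 1 and 8.75, 8.77, 8.89, 8.94 and 8.39 at week 2, a fall of 0.72 ± 0.12 (adjusted p = 0.0138), with a second probe set down by 0.67. Chordc1, a co-chaperone of Hsp90, read 9.53, 9.57, 9.54, 9.40 and 9.82 and then 8.84, 8.97, 9.09, 8.92 and 9.22, a fall of 0.57 ± 0.10 (adjusted p = 0.0138). Neither gene overlapped between the weeks, and both lay below every untreated array at week 2, with limma adjusted p of 0.028 and 0.024 against untreated. Each call held in 8 of the 10 fits without 1 array and was lost without week 1 replicate 5 and, for Dnaja1, week 2 replicate 5 or, for Chordc1, week 2 replicate 1 (highest adjusted p 0.0623). Without the 3 arrays high in adrenal genes the differences were -0.80 and -0.62 (adjusted p = 0.0663 for both).

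Hspa8, the constitutive Hsp70 of the cytosol, was read by 4 probe sets. Its brightest, at 11.21 and 10.86, differed by -0.35 ± 0.11 without passing (adjusted p = 0.309). A second probe set read 10.98, 10.94, 11.10, 10.89 and 11.08 at week 1 and 10.13, 10.06, 10.49, 10.46 and 10.43 at week 2, and fell by 0.68 ± 0.10 (adjusted p = 0.0021), and another fell by 0.59. The dimmest differed by 0.20. The heat shock list as a whole had 2 of 17 genes fall and a median of -0.18. At an unadjusted p below 0.05, 7 were lower (41.2%, against 4.73% of all genes). For 6 the weeks did not overlap (35.3%, against 1.81%). Hsph1 (-0.39 ± 0.09, adjusted p = 0.0569), Stip1 (-0.61 ± 0.15, 0.0995) and Dnajb1 (-0.44 ± 0.11, 0.135) did not overlap and missed the threshold.

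**Figure D4:**
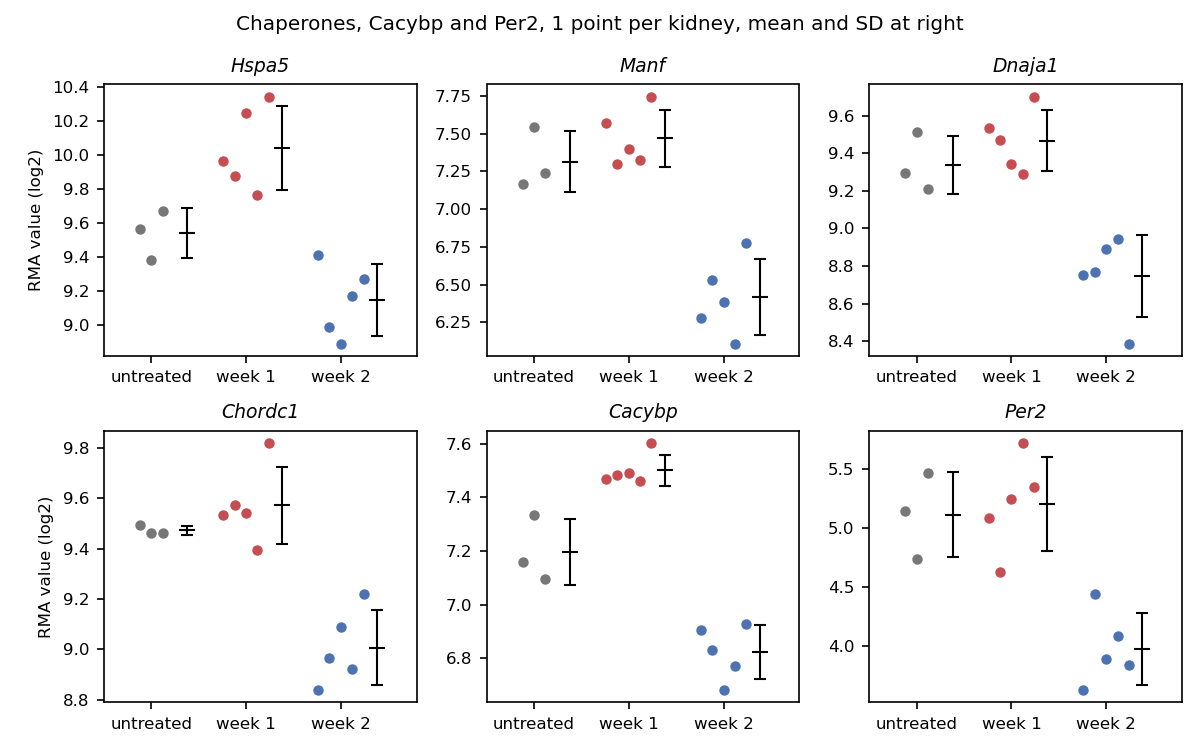
RMA values (log2, y axis) of Hspa5, Manf, Dnaja1, Chordc1, Cacybp and Per2 in untreated, week 1 and week 2 kidneys, 1 point per kidney, with the group mean and SD at the right of each group. Week 2 lies below week 1 without overlap in all 6 panels, and the week 2 means are also below the untreated means, a difference that did not pass the test for Hspa5 and Cacybp.

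Cacybp, which links calcyclin and the Siah ubiquitin ligases, had the smallest adjusted p of the genes read from their brightest probe set. It read 7.47, 7.48, 7.49, 7.46 and 7.60 at week 1 and 6.90, 6.83, 6.68, 6.77 and 6.93 at week 2, a fall of 0.68 ± 0.10 (1.60-fold, adjusted p = 0.0021). Week 2 also lay under the untreated arrays, at 7.16, 7.33 and 7.09, a difference that did not pass (adjusted p = 0.091, limma). The call held in all 10 fits without 1 array (adjusted p 0.00359 to 0.0156) and reached 0.0541 without the 3 arrays high in adrenal genes, with a difference of -0.69.

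Per2, a repressor in the circadian clock, was the only clock gene of 23 measured that passed the test. It read 5.08, 4.63, 5.24, 5.72 and 5.35 at week 1 and 3.63, 4.44, 3.89, 4.09 and 3.84 at week 2, a fall of 1.23 ± 0.22 (2.34-fold, adjusted p = 0.0160). The weeks did not overlap, and week 1 overlapped the untreated arrays at 5.14, 4.74 and 5.46. Arntl (Bmal1), the activator of the clock, differed by 0.33 ± 0.19, Dbp by -0.31 ± 0.20 and Noct by -0.78 ± 0.26, and 0 of these passed (adjusted p = 0.677, 0.734 and 0.34). The labels give no time of day. The call held in 5 of the 10 fits without 1 array (adjusted p 0.00975 to 0.072), and without the 3 arrays high in adrenal genes the difference was -1.12 (adjusted p = 0.165).

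Msmo1, a demethylating enzyme of cholesterol synthesis, fell from 6.68 ± 0.19 to 5.85 ± 0.33 (SD, n = 5 each; difference -0.84 ± 0.18 SE, adjusted p = 0.0492, limma). Its arrays were 6.54, 6.48, 6.79, 6.95 and 6.66 at week 1 and 5.66, 5.60, 5.57, 6.26 and 6.14 at week 2, without overlap. It was 1 of 20 sterol synthesis genes measured to fall. At an unadjusted p below 0.05, 5 of the 20, Msmo1 included, were lower (25%, against 4.73% of all genes) and 0 higher. The others, Fdft1 (-0.40), Mvd (-0.36), Idi1 (-0.59) and Fdps (-0.59), missed the adjusted threshold. For 2 of the 20 the week 2 arrays lay below every week 1 array (10%, against 1.81%), and the list's median was -0.10. The second, dimmer Msmo1 probe set differed by 0.08, and 1 of the 10 fits without 1 array kept the call, that without week 2 replicate 4. Without the 3 arrays high in adrenal genes the difference was -0.90 (adjusted p = 0.159).

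The remaining genes to fall were Hexim1, an inhibitor of the elongation kinase P-TEFb, by 0.51, Anks4b, a scaffold of brush-border microvilli, by 0.56, and St7l by 0.58 (adjusted p = 0.046, 0.0424 and 0.0494). Single probe sets of Psme3, Lins1 and Pdrg1 fell too, none of them the brightest of its gene. That of Lins1 averaged 1.44 over the 33 arrays, far below the array medians, and that of Psme3 overlapped between the weeks. Hexim1 held in 1 of the 10 fits without 1 array, and Anks4b and St7l in 0. Values of Hexim1, Anks4b and St7l did not overlap between the weeks.

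Genes that rose beside Hba-a1 were fewer and their changes smaller. Atxn7l1 rose by 0.87, Pabpc1l, a poly(A)-binding protein, by 0.78, Klf11, a zinc finger repressor, by 0.71, H1f2, a linker histone, by 0.63, Septin6, a filament-forming GTPase, by 0.62, Wdr19, a subunit of ciliary transport, by 0.60, Cdk7, the kinase of TFIIH, by 0.54 and Erbb3, a neuregulin receptor, by 0.53. Their adjusted p ran from 0.0138 for Septin6 to 0.0494 for Cdk7 in limma, and none of the 8 overlapped between the weeks. Klf11 read 7.43, 7.56, 6.93, 7.62 and 6.70 at week 1 and 7.88, 8.03, 7.82, 8.02 and 8.03 at week 2, above the untreated 7.06, 7.10 and 7.33, and averaged 7.29 at week 3. Cdk7 was 7.85 ± 0.09 at week 1 and 8.39 ± 0.08 at week 2 (SD, n = 5 each), with untreated at 8.49, 8.42 and 8.34. The week 7 mean of Cdk7 was 7.80.

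Septin6 held in 8 of the 10 fits without 1 array, lost without week 1 replicate 5 or week 2 replicate 1. The 7 others held in 0 to 3. With the probe sets of each gene averaged, 13 of the 20 called genes kept their call. The differences then were 0.09 for Septin6, 0.14 for Atxn7l1, 0.20 for Cdk7 and 0.27 for Erbb3 (adjusted p = 0.848, 0.666, 0.602 and 0.17, limma), and -0.38 for Msmo1, -0.35 for Hexim1 and -0.37 for St7l (adjusted p = 0.319, 0.162 and 0.0842). The probe sets of Atxn7l1 and Septin6 disagreed in sign, with 2 of 5 and 3 of 7 negative, as did those of Cdk7, with 1 of 5 negative. Dimmer probe sets of Txnip, Bcat1 and Slc25a30 rose, as did 13 probe sets without a single gene name.

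No gene passed the test in 34 of the 39 lists examined. Adipose genes had a median of 0.18 over 12 genes, 0 of them at an unadjusted p below 0.05, and mean levels from 5.51 to 7.60 at week 1 and from 6.32 to 7.51 at week 2. Fibrosis and extracellular matrix genes had a median of -0.04 over 38, tubular injury genes 0.00 over 18, podocyte genes -0.01 over 12 and proximal tubule genes -0.02 over 38. In each, 0 passed the adjusted threshold in limma. At an unadjusted p below 0.05, 1 matrix gene and 1 proximal tubule gene were lower (2.63% each, against 4.73% of all genes). Of the tubular injury and podocyte genes 0 were lower, and 0 genes of these lists were higher. Single members ranged more widely, from -0.78 to 0.59 in the matrix list and from -1.19 to 0.39 in the proximal tubule list. Havcr1 (Kim-1), the tubular injury marker, was 7.22 ± 0.20 and 7.24 ± 0.32 (SD, n = 5 each), and Timp1 3.40 ± 0.28 and 3.02 ± 0.22. Jchain, of antibody-secreting cells, was 3.31 ± 0.76 and 4.19 ± 1.02.

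**Figure D5:**
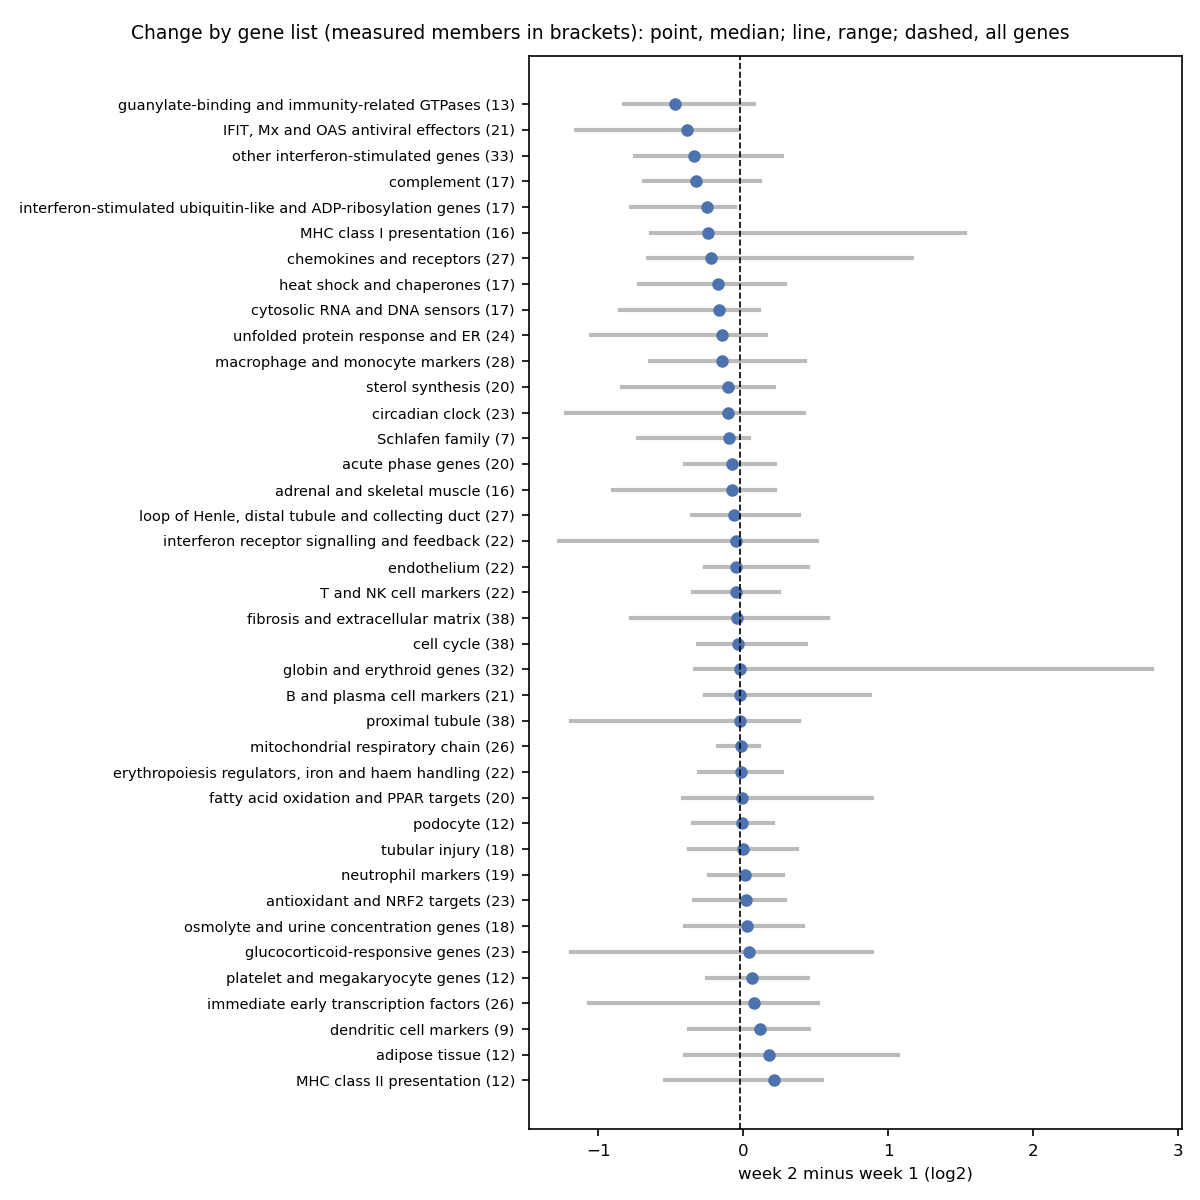
Week 2 minus week 1 difference (log2, x axis) of 39 gene lists (y axis, measured members in brackets), with the median as a point, the lowest to highest member as a line and the median of all genes as the dashed line. Interferon-stimulated and complement lists lie farthest to the left, at -0.47 to -0.25, and the globin and erythroid list has its median at -0.02 with a line reaching 2.83.

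A few single genes outside the groups above are given as values. The 26 immediate early transcription factors had a median of 0.08, with 17 positive, and the 23 glucocorticoid-responsive genes one of 0.04. In each list 0 passed the adjusted threshold in limma. At an unadjusted p below 0.05, 1 of the 26 was lower (3.85%) and 0 higher. Of the 23, 3 were lower (13%) and 1 higher (4.35%), against 4.73% and 3.64% of all genes. Their members ran from -1.06 to 0.51 and from -1.19 to 0.89. Nr4a3, an orphan nuclear receptor, differed by -1.06 ± 0.28 (adjusted p = 0.15), with week 2 replicate 4 at 7.82 and the other week 2 arrays at 5.94 to 6.27. Its highest week 1 value, 8.44, was on week 1 replicate 4, and both of these arrays were among those high in adrenal genes. The third such array, week 1 replicate 1, read 7.31. Egr1 and Fos, transcription factors induced within minutes of a stimulus, spread widely in both weeks. Egr1 ran from 8.98 to 11.02 and from 8.90 to 11.68, and Fos from 5.80 to 7.97 and from 4.97 to 8.52 (adjusted p = 0.86 and 0.941 between the weeks). Pdk4, a brake on pyruvate oxidation, was higher by 0.89 ± 0.22 without overlap (adjusted p = 0.124), and Cirbp, the cold-inducible RNA-binding protein, by 0.65 ± 0.16 (adjusted p = 0.131). Both missed the threshold.

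Other genes on which the study reports did not pass the test between the weeks. Acta2 (smooth muscle actin) differed by 0.07 ± 0.21, Cebpd by -0.01 ± 0.29, Fbn2 by -0.09 ± 0.15, Saa1 by -0.11 ± 0.29, Saa3 by -0.10 ± 0.20, Sting1 by -0.11 ± 0.19, S100a8 by 0.27 ± 0.16 and S100a9 by 0.12 ± 0.23 (log2, SE). Ccn1, Tnc and Ddx60 differed by 0.48, 0.41 and -0.67. Adjusted p in limma lay between 0.62 and 0.998 for these 11 genes. The probe sets of Saa1, Fbn2, S100a8, S100a9, Saa3 and Ddx60 averaged 2.45 to 3.50 over the 33 arrays, below the array medians, and that of Col1a2 averaged 1.44, so its difference is not given. Acta2, Cebpd, Fbn2, Saa1 and Saa3 changed sign in 1 or more alternatives.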

How the data were processed

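Per the labels, kidney RNA was extracted with Trizol, labelled with NuGEN Ovation reagents and hybridised to HT-MG-430 PM arrays. The authors deposited log2 values after robust multi-array average (RMA) normalization, with RMA and Partek named without versions. The log base was taken from the range, 0.585 to 13.9. Of 45141 probe sets 104 were controls and were left out, and limma 3.58.1 (R 4.3.3) fitted the 33 arrays with 7 group means, and p-values were adjusted over 45037 probe sets. Each gene was read from the brightest of the probe sets annotated to that symbol alone. Named were the 12 largest changes per direction past the threshold without overlap, up to 4 past it per list, a panel and the study's genes; genes below the threshold that are given as list examples were chosen after their values were seen. The comparison and gene lists were chosen with earlier results of these data known. Several genes of the panel are not reported here. The number of arrays limits precision. The test was tried on simulated data. Alternatives were fewer arrays, array weights, a robust trend, median centring, a dim filter (mean 5), covariates, a replicate block, averaged probe sets and left-out arrays.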

Additional observations from a re-analysis of the deposited data

Results flagged for a closer look

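In 12 of 138 groups of 5 values, 1 array stood farther from the others than the 95% Dixon limit allows, where chance gives about 1 in 20. At week 1, replicate 5 was high in Anks4b (7.64, others 7.25 to 7.35) and in Cacybp (7.60, others 7.46 to 7.49), and replicate 4 was low in Atxn7l1 (3.77, others 4.46 to 4.69) and in the actin 3′/5′ difference (1.68, others 1.99 to 2.03), all on the log2 scale. At week 2, replicate 4 was low in Anks4b (6.57, others 6.84 to 6.92) and high in Nr4a3 (7.82, others 5.94 to 6.27). Replicate 5 was high in Atxn7l1 (5.68, others 5.11 to 5.23) and S100a9 (3.39, others 3.03 to 3.11) and low in Fbn2 (2.13, others 2.53 to 2.68). Replicate 3 was low in Septin6 (5.56, others 5.98 to 6.05) and high in Umod (11.17, others 11.09 to 11.11), and replicate 2 was high in Dbp (4.47, others 4.12 to 4.21).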

How the results depend on the processing

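The medians of the interferon-stimulated genes and of the heat shock and ER genes stayed negative in the alternatives run and that of the erythroid genes ran from -0.06 to 0.00 (other lists were not rerun), while the calls moved with the fit, and the cause was not tested. Against 27 probe sets higher and 18 lower (4 and 3 past 2-fold), the 10 arrays of weeks 1 and 2 alone gave 34 and 30 (8 and 6), untreated and weeks 1 to 3 alone 47 and 43 (7 and 7), and array weights 119 and 87 (11 and 6). The trend with robust prior gave 1 higher past 2-fold, leaving out dim probe sets 46 higher, and the adult globin level as a covariate 3 higher and 6 lower, with 1 higher past 2-fold. Without the pair of low-weight arrays, week 1 replicate 4 and week 2 replicate 5, 5 were higher and 8 lower (0 and 1 past 2-fold), and without the 3 arrays high in adrenal genes 0 and 1 (0 and 0). Both of these sets of arrays were chosen after seeing the data, as were the alternatives for the chaperone lists. With 1 array left out, 0 to 10 were higher and 2 to 10 lower (0 to 3 and 0 to 3 past 2-fold).

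With the replicate block, 13 probe sets were higher and 10 lower, all 23 among the 45 called without it. Deviations of same-numbered arrays correlated between -0.06 and 0.22, and 1 of the 5 week 1 arrays, replicate 4, correlated best with its own number, so the numbers were not taken to pair the samples.

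Interferon-stimulated genes passing lower numbered 0, but 2 with the 10 arrays alone, 4 with untreated and weeks 1 to 3, and 1 with array weights; the median ran from -0.29 to -0.42. Erythroid genes passing higher numbered 1, but 2 in each of those 3 fits, 0 with the robust trend and without either set of doubted arrays, and 0 to 1 with 1 array left out. Heat shock and ER genes passing lower numbered 4, but 7 with array weights, 2 with the globin covariate, 0 without the arrays high in adrenal genes and 0 to 4 with 1 array left out; their median without the low-weight arrays was -0.23.

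Small differences changed sign; none of them had passed the test. Cebpd was 0.063 with array weights, 0.14 without the low-weight arrays and 0.20 without the arrays high in adrenal genes. Without the low-weight arrays and without the arrays high in adrenal genes, in that order, Acta2 was -0.049 and -0.018, Fbn2 0.036 and 0.033, Fos -0.023 and -0.14 and Havcr1 -0.023 and -0.016, and Havcr1 was -0.0062 with the actin covariate. Saa1 was 0.011 without the low-weight arrays and Saa3 0.17 without the arrays high in adrenal genes. With 1 array left out, Acta2 ran from -0.039 to 0.14, Cebpd from -0.17 to 0.16, Fbn2 from -0.14 to 0.013, Fos from -0.11 to 0.78, Havcr1 from -0.093 to 0.10, Saa1 from -0.17 to 0.0069 and Socs3 from -0.21 to 0.090.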
